A study of Mus musculus with 19 samples.

Results

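The proteasome is the large protease that breaks down proteins tagged with ubiquitin. Its 20S core is a barrel of alpha rings, which form the gate, and beta rings, which carry the cutting sites. The 19S cap recognises tagged proteins, and its ring of ATPases unfolds them and feeds them into the core. Chaperones of the heat shock family and of the endoplasmic reticulum refold damaged proteins, and proteins that cannot be refolded are handed to ubiquitin and the proteasome. The question addressed here was whether the genes of this breakdown machinery moved with the chaperone genes when mice were kept awake. The genes were all 46 symbols among the 14443 of the count table that start with Psma, Psmb, Psmc, Psmd, Psme, Psmf or Psmg followed by a digit. By role they were 7 subunits of the alpha ring, 7 constitutive and 1 immune subunit of the beta ring, 6 ATPases and 11 other subunits of the 19S cap, 3 assembly chaperones of the cap and 4 of the core, 4 proteasome activators and the proteasome regulator PI31. The other 2 are no proteasome subunits: Psmc3ip encodes a meiotic recombination factor and Psme3ip1 a partner of the activator PA28 gamma.

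RNA was measured in locus coeruleus, the brainstem nucleus of noradrenergic neurons, by sequencing of 19 poly(A) libraries. CnB1KO_SD6 (n = 5) were ABC-CnB1KO mice kept awake for 6 h and CnB1KO_S6 (n = 5) were ABC-CnB1KO mice that slept. WT_SD6 (n = 5) were ABC-Ctrl mice kept awake for 6 h and WT_S6 (n = 4) were ABC-Ctrl mice that slept. CnB1 is the regulatory subunit of calcineurin, a phosphatase activated by calcium. Tissue was taken 4 weeks after injection of AAV-hSyn-Cre, a virus that carries Cre under the promoter of the neuronal gene synapsin. By this design the other cells of the dissected tissue are meant to keep the CnB1 gene. Which cells lost it was not measured here. The labels give no ages. The labels call the samples of a group biological replicates. In such bulk tissue fewer cells of a type and less RNA per cell cannot be told apart.

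Libraries held between 3887298 and 7903253 counts. The 46 genes together took 0.29 to 0.323% of the counts in CnB1KO_SD6, 0.288 to 0.309% in CnB1KO_S6, 0.28 to 0.298% in WT_SD6 and 0.285 to 0.302% in WT_S6. Ppp3r1, which encodes CnB1, had 123 to 141 CPM in CnB1KO_SD6 and 136 to 165 CPM in WT_SD6, and 120 to 152 CPM in CnB1KO_S6 and 155 to 164 CPM in WT_S6 (TMM-scaled CPM, the count brought to a common library total). Averaged over sleep states it was 0.835-fold in CnB1KO relative to WT (edgeR adjusted p = 0.00758). Noradrenergic markers were present, but their level differed between libraries. Their mean log2 CPM over 8 genes had a group median of 6.64 in CnB1KO_SD6, 6.71 in CnB1KO_S6, 6.58 in WT_SD6 and 6.47 in WT_S6. Its SD between libraries was 0.233 in CnB1KO_SD6, 0.295 in CnB1KO_S6, 0.578 in WT_SD6 and 0.422 in WT_S6. The widest range was that of WT_SD6, from 5.45 to 6.86. Library 13 of CnB1KO_S6 had the lowest total, 3887298 counts, and stood high for several subunits named below. Markers of cerebellar granule cells, neighbours of the dissected site, differed widely between libraries, with a mean log2 CPM over 7 genes of 2.99 to 7.41 in CnB1KO_SD6, 4.06 to 7.22 in CnB1KO_S6, 3.87 to 7.93 in WT_SD6 and 5.6 to 7.6 in WT_S6.

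The promoters of these genes were read for a pair of short DNA words. One is GAANNTTC, a core of the element bound by the heat shock factor HSF1, which drives chaperone genes. The other is TGACNNNGC, the core of the antioxidant response element, which is bound by the factors Nrf1 and Nrf2, and Nrf1 (Nfe2l1) is known to drive proteasome genes when proteasome activity is low. Both were searched on both strands of RefSeq windows of 300 bases around each gene start (GRCm38.p6). GAANNTTC reads the same on both strands, and in the windows shown no matches overlap. Of the 46 genes 39 had a window. GAANNTTC occurred in 2 of these 39 (5.13%), Psmf1 and Psmb5, against 11 of 19 cytosolic chaperones with a window (57.9%), 0 of 19 genes of the endoplasmic reticulum list and 9.04% of all symbols. TGACNNNGC occurred in 6 of the 39 (15.4%), Psmd9, Psme4, Psmb6, Psmd12, Psmc6 and Psmb5, against 6 of 13 genes that act with the proteasome under other names (46.2%), 2 of 19 cytosolic chaperones, 4 of 19 genes of the endoplasmic reticulum list and 14% of all symbols. A match describes letters and is no measured binding site. Shown are the 250 bases before the RefSeq start of the gene that fell with deprivation (Psmf1, chr2:151741311-151741560, minus strand), of a pair of catalytic subunits that hold TGACNNNGC (Psmb5, chr14:54617996-54618245, minus strand, and Psmb6, chr11:70525107-70525356, plus strand) and, for comparison, of the chaperone that rose most (Hspa1b, chr17:34959239-34959488, minus strand). Capitals mark the matched words.
Psmf1: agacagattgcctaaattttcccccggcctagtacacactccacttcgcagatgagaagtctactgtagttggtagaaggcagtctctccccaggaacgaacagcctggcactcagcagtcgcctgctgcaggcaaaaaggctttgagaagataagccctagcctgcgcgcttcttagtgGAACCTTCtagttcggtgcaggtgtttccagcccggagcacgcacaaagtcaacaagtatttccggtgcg
Psmb5: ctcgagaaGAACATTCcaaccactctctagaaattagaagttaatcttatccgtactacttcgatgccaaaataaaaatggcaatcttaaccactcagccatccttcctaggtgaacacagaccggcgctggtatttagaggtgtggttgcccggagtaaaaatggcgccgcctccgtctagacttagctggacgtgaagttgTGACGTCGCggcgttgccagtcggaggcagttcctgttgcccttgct
Psmb6: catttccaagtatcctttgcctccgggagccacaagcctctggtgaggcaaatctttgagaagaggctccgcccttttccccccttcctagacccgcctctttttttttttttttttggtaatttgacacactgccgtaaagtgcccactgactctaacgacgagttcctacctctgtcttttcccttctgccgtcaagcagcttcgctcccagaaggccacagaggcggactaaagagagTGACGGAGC
Hspa1b: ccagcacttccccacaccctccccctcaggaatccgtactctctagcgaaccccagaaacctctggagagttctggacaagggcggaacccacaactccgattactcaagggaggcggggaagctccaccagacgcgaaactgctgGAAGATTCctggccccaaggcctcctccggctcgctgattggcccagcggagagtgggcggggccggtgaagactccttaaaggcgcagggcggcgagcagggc

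Subunits of the proteasome were more abundant per length than its assembly factors. On the FPKM scale (fragments scaled by gene length and library size, averaged over the 19 libraries), the median gene was at 51.3 among the 19S ATPases, 45.6 in the constitutive beta ring, 43.2 among the other 19S subunits and 40.6 in the alpha ring. Activators had a median of 30.5 FPKM, the assembly chaperones of the cap 13.9 FPKM and those of the core 13.1 FPKM. Psmc5, an ATPase of the cap, was highest at 73.1 FPKM, followed by the ATPase Psmc1 at 61.0 FPKM and the catalytic subunit Psmb6 at 60.6 FPKM. Psmc5 was above both in all 19 libraries, while Psmc1 was above Psmb6 in 11 of 19, so the order of these last neighbours is not separated by the spread. Psmg4, an assembly chaperone of the core, was at 8.53 FPKM and Psmc3ip lowest at 2.74 FPKM. The immune form of the core swaps catalytic subunits for Psmb8, Psmb9 and Psmb10. Psmb10 was at 23.4 FPKM, while Psmb8 (2.61 FPKM) and Psmb9 (1.37 FPKM) were listed only in the FPKM tables, with 8 other symbols of the same pattern, such as Psma8, the alpha subunit of testis (0.342 FPKM).

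**Figure D1:**
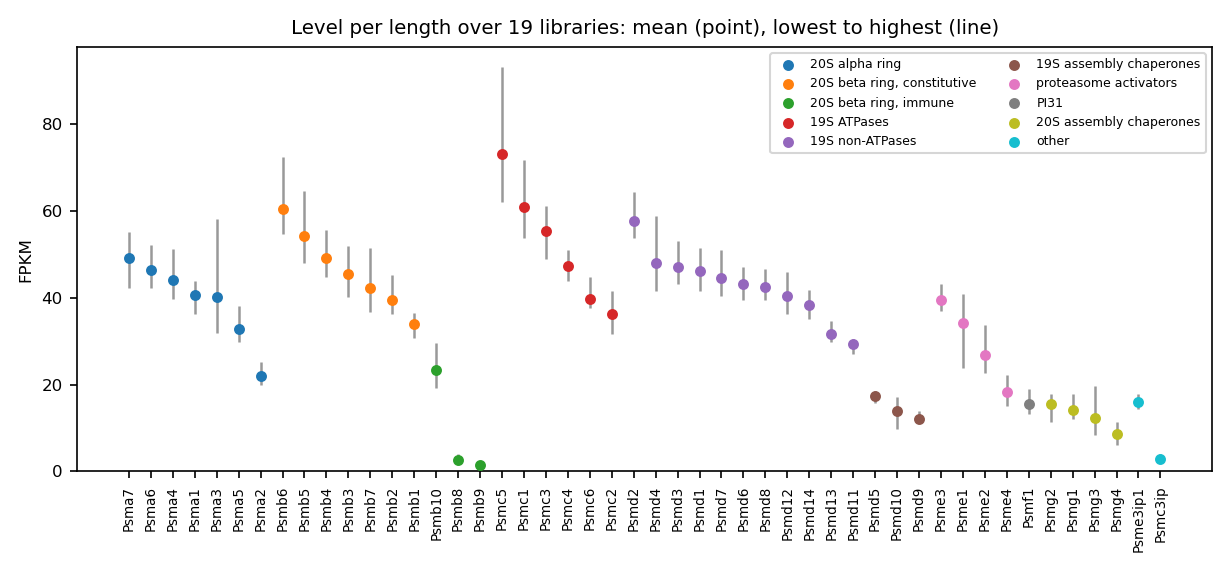
FPKM of each gene by role, with the mean over the 19 libraries as a point and the lowest to highest library as a line. Ring and cap subunits lie mostly between 30 and 60 FPKM, assembly chaperones below 20 FPKM, and Psmb8 and Psmb9 near 0.

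With sleep deprivation in CnB1KO mice, none of the 46 genes passed the test (edgeR quasi-likelihood, adjusted p under 0.05), where 0.692% of all genes did. At an unadjusted p under 0.05 there were 2, Psmd9 higher and Psmf1 lower, against 9.69% of all genes. DESeq2 and limma voom passed none either (1.11 and 0.644% of all genes), with 1 gene each at an unadjusted p under 0.05. The median log2 change was 0.023, beside -0.006 over all genes, and 32 of 46 changes were above 0, against 47.2% of all genes. Changes ran from -0.13 for Psmf1 to 0.20 for the core assembly chaperone Psmg3. In the alpha ring all 7 changes were above 0, with a median of 0.06, and none passed. No gene had CnB1KO_SD6 and CnB1KO_S6 libraries that did not overlap, where 2.66% of all genes had.

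In WT mice none of the 46 genes passed either, where 1.14% of all genes did. Psmf1 alone had an unadjusted p under 0.05, against 11.6% of all genes, and DESeq2 and limma voom passed none (1.57 and 1.13% of all genes) and had 1 gene each below that value. The median log2 change was -0.005, beside 0.001 over all genes, and 19 of 46 changes were above 0 (50.3% of all genes). Changes ran from -0.19 for the activator Psme1 to 0.16 for Psmc3ip, and the alpha ring, which lay above 0 in CnB1KO, had 3 of 7 above 0. No gene had WT_SD6 and WT_S6 libraries that did not overlap, where 5.21% of all genes had. The difference between genotypes in the deprivation change passed for none of the 46, as for none of all genes, and none reached an unadjusted p under 0.05, where 1.99% of all genes did (0 of 46 also with DESeq2 and limma voom, which passed none of the 46, and 0.00693 and 0% of all genes). Its median was 0.02 (all genes -0.01), and 36 of 46 values were above 0, where 47.2% of all genes were.

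**Figure D2:**
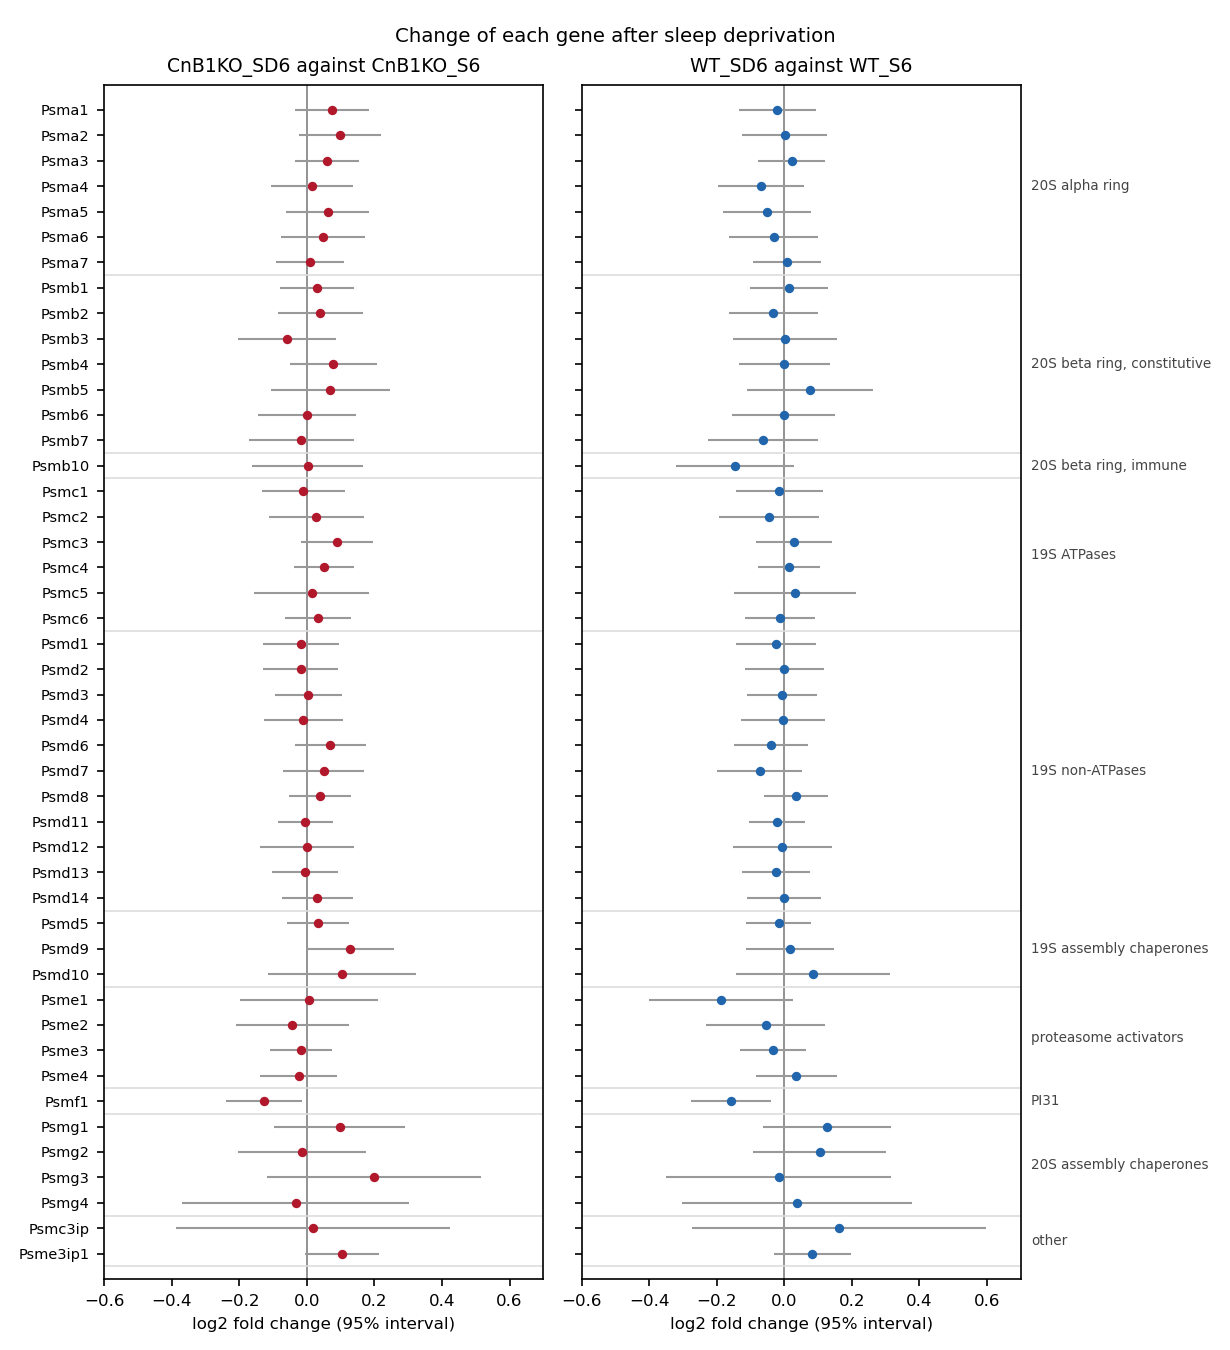
Log2 change after deprivation with its 95% interval for each of the 46 genes, ordered by role, CnB1KO_SD6 against CnB1KO_S6 on the left and WT_SD6 against WT_S6 on the right. Most points lie within 0.1 of 0, and Psmf1 lies below 0 with its interval in both panels.

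Averaged over genotypes, 1 of the 46 genes passed, Psmf1, which fell, where 4.69% of all genes passed and 2.13% fell. Psmf1 was also the 1 gene that passed with DESeq2 (4.78% of all genes) and limma voom (4.73%). At an unadjusted p under 0.05 there was besides it Psme3ip1, higher, against 17.2% of all genes. The median log2 change was 0.007, beside -0.003 over all genes, and 27 of 46 changes were above 0 (48.4% of all genes). The intervals were narrow for these genes, with a median half-width of 0.087, so 44 of 46 intervals lay within a 1.2-fold change either way, where 62.6% of all genes had such intervals (a bound chosen after the values were seen). Within CnB1KO this held for 41 of 46 genes (50.3% of all genes) and within WT for 36 of 46 (45.2% of all genes).

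The chaperone lists moved in the same libraries. They were chosen with earlier results of these data known, so their counts and medians describe these libraries and are no independent benchmark. The list called cytosolic, also used for the promoters, includes the mitochondrial chaperone genes Hspd1 and Hspe1 and Hsf1, the gene of the factor HSF1. Of the 24 genes of this list 6 rose and none fell in the averaged comparison, with a median of 0.12. Of 22 genes of endoplasmic reticulum chaperones and the unfolded protein response 10 rose and none fell, with a median of 0.13, where 2.57% of all genes rose. Without library 13 these counts were 10 and 14. In CnB1KO 3 and 5 genes of these lists rose (0.464% of all genes), and in WT also 3 and 5 (0.775% of all genes). In CnB1KO the cytosolic count was 1 without library 18, and the endoplasmic reticulum count was 1 without library 11, 14, 16 or 18, 2 without library 12 or 15 and 3 without library 17 or WT_SD6 library 7. In WT the endoplasmic reticulum count was 3 without library 2 or 9. Hspa1b, an inducible Hsp70, had 14.2, 9.74, 7.96, 6.22 and 5.97 CPM in CnB1KO_SD6 and 3.47, 4.17, 3.0, 3.73 and 2.65 CPM in CnB1KO_S6, against 10.5, 12.6, 8.38, 10.7 and 9.89 CPM in WT_SD6 and 4.26, 3.86, 4.58 and 4.94 CPM in WT_S6. Neither pair of groups overlapped, and averaged over genotypes it was 2.46-fold higher (adjusted p = 4.26e-05), although reads of Hspa1b and its near-identical neighbour Hspa1a cannot be placed with certainty. The other cytosolic genes of smallest adjusted p were Hspa1a at 1.58-fold, the small heat shock protein gene Hspb1 at 1.64-fold and Chordc1 at 1.18-fold. Sdf2l1, a component of a chaperone complex of the endoplasmic reticulum, was 1.68-fold higher (adjusted p = 4.7e-06), and Dnajb11, a co-chaperone there, 1.17-fold higher (adjusted p = 0.00038). The co-chaperone Dnajc3 was 1.19-fold and Manf, a secreted factor of the stressed endoplasmic reticulum, 1.2-fold higher. Hspa5 (BiP), the Hsp70 of the endoplasmic reticulum, was 1.16-fold higher (adjusted p = 0.0209), while the constitutive Hsp70 gene Hspa8 had a log2 change of 0.02 with an interval of -0.16 to 0.20 by counts, although its FPKM rose (log2(FPKM + 1) change of 0.25, limma adjusted p = 0.00486). For 33 of the 46 proteasome-pattern genes the upper end of the interval lay below the median of the cytosolic chaperone list, and for 33 below that of the endoplasmic reticulum list (a comparison chosen after the values were seen). Of all 14443 genes, 6532 and 7403 met these bounds. Their intervals were wider, with a median half-width of 0.134 against 0.087 for the 46 genes.

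**Figure D3:**
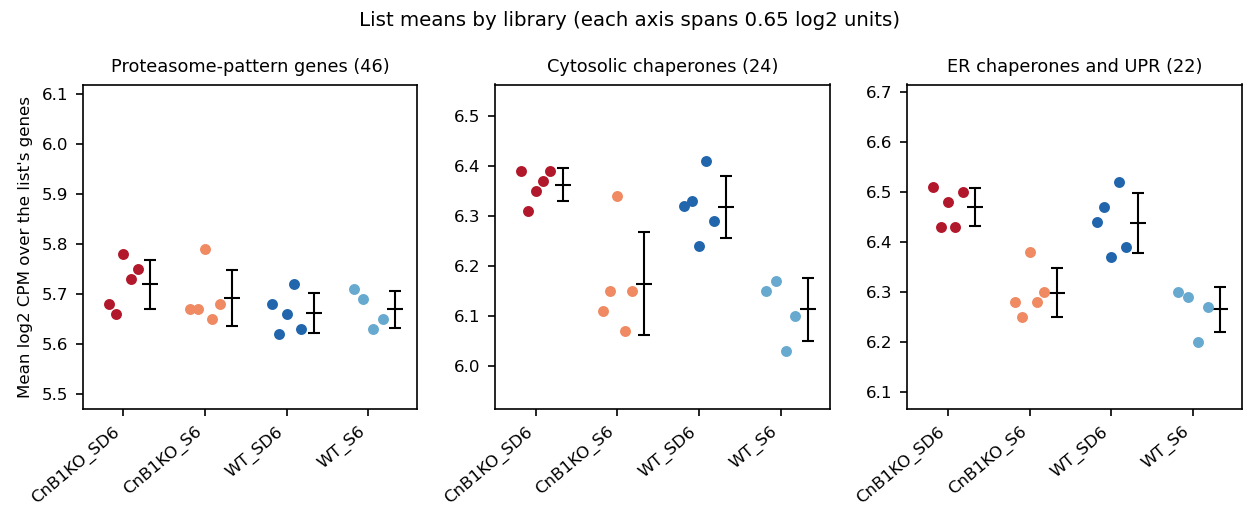
Mean log2 CPM over the genes of each list in each library, with group mean and SD in black, for the 46 proteasome-pattern genes, 24 cytosolic chaperones and 22 endoplasmic reticulum (ER) chaperones and unfolded protein response (UPR) genes. The proteasome-pattern means overlap between all groups (5.66 to 5.78 in CnB1KO_SD6, 5.65 to 5.79 in CnB1KO_S6, 5.62 to 5.72 in WT_SD6 and 5.63 to 5.71 in WT_S6), and the ER means of deprived libraries lie above those of sleeping ones in both genotypes.

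**Figure D4:**
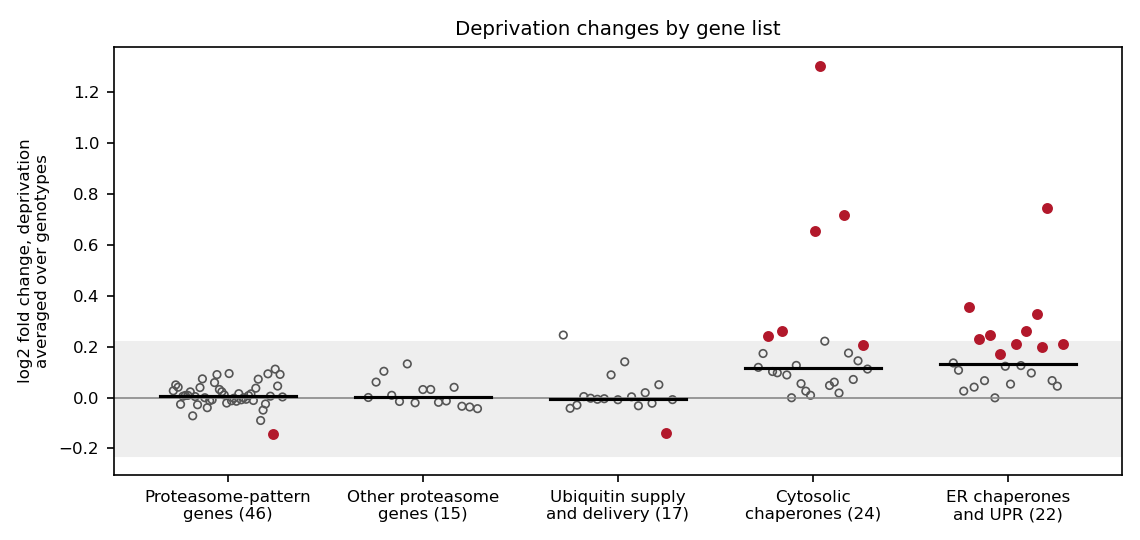
Log2 change with deprivation, averaged over genotypes, for each gene of 5 lists. Red points passed at an adjusted p under 0.05, bars are list medians, and the grey band spans the 5th to 95th percentile of all genes. Proteasome-pattern genes gather near 0 with Psmf1 as the red point below, and the red points of both chaperone lists are above 0.

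Psmf1 encodes PI31, a protein that binds the 20S core, inhibits it in purified form and in neurons of the fly helps to move proteasomes along axons. It lies on chromosome 2 from 151715812 to 151744186 on the minus strand (ENSMUSG00000032869.15, GRCm38). The bases shown above for Psmf1, taken before its RefSeq start, lie inside this GENCODE span and not before it. Psmf1 had 62.8, 57.2, 57.3, 59.5 and 56.3 CPM in CnB1KO_SD6 and 66.0, 61.8, 57.6, 66.1 and 67.5 CPM in CnB1KO_S6. It had 62.5, 58.6, 57.3, 61.7 and 65.2 CPM in WT_SD6 and 67.5, 73.8, 68.7 and 62.6 CPM in WT_S6. In both genotypes most deprived libraries lay below most sleeping ones, but both pairs of groups overlapped. The change was 0.906-fold averaged over genotypes, a log2 change of -0.14 with a 95% interval of -0.22 to -0.06 (adjusted p = 0.0419). Within CnB1KO it was 0.916-fold (adjusted p = 0.424) and within WT 0.897-fold (adjusted p = 0.231), and neither passed. Of the 19 fits that each left out 1 library, 14 lost the call, with an adjusted p of up to 0.106 without WT_S6 library 2, and it was kept without library 4 of WT_S6, 6 or 10 of WT_SD6, 13 of CnB1KO_S6 or 16 of CnB1KO_SD6. The deposited FPKM gave a smaller change of -0.05 (limma on log2(FPKM + 1), adjusted p = 0.767), with 13.3 to 16.5 FPKM in CnB1KO_SD6, 14.3 to 16.2 FPKM in CnB1KO_S6, 15 to 18.9 FPKM in WT_SD6 and 15.4 to 17.4 FPKM in WT_S6.

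Oligodendrocyte markers also moved with deprivation: 3 of 12 fell in the averaged comparison and the other 9 did not pass, and their mean log2 CPM was 6.96 to 7.29 in CnB1KO_SD6, 7.08 to 7.59 in CnB1KO_S6, 6.79 to 7.06 in WT_SD6 and 7.08 to 7.29 in WT_S6. With that mean as a covariate the change of Psmf1 was -0.18 (adjusted p = 0.0515).

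In the 20S core, the subunits with the cutting sites are Psmb6 (beta1), Psmb7 (beta2) and Psmb5 (beta5). Psmb5 had 27.6, 26.4, 35.2, 32.9 and 33.4 CPM in CnB1KO_SD6, 29, 29.2, 33.8, 27.9 and 28.7 CPM in CnB1KO_S6, 29.5, 26.1, 29.4, 32.2 and 27.2 CPM in WT_SD6 and 29.5, 28.5, 25.5 and 25.9 CPM in WT_S6. In CnB1KO_SD6 3 libraries lay above 4 of the 5 CnB1KO_S6 libraries and the other 2 below all of them, and the log2 change averaged over genotypes was 0.07 with an interval of -0.06 to 0.20. That of Psmb6 was 0.00 (-0.11 to 0.11) and that of Psmb7 -0.04 (-0.15 to 0.07). Psmb7 shares 11.8% of its exon bases with a gene on the opposite strand and Psmb5 12.1% on the same strand, so their unstranded counts are uncertain. The same limit holds for Psmc3ip (21.2%), the cap subunit Psmd13 (10.1%) and the ATPase Psmc3 (8.2%), which share exon bases on the opposite strand. It also holds for the core assembly chaperone Psmg3, which shares 9.7% on the same strand. Among alpha subunits, Psma2 had the largest change in CnB1KO, 0.10 (-0.02 to 0.22), against 0.00 (-0.13 to 0.13) in WT. Psma1 had 0.07 and Psma5 0.06 in CnB1KO, against -0.02 and -0.05 in WT, and Psma7 had 0.01 in both genotypes. The difference between genotypes had an interval across 0 for each of these 4 genes.

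Among ATPases of the 19S cap, Psmc3 had the largest change in CnB1KO, 0.09 (-0.02 to 0.20), and 0.03 in WT. Averaged over genotypes, Psmc1 was at -0.01, Psmc4 at 0.03 and Psmc5 at 0.02. Other subunits of the cap had averaged changes of -0.02 for the scaffold Psmd1, -0.01 for Psmd2, -0.01 for the ubiquitin receptor Psmd4, 0.01 for Psmd6, -0.01 for Psmd7, 0.04 for Psmd8 and -0.01 for Psmd11. Psmd14, the deubiquitinase that removes the tag, was at 0.02. The assembly chaperone Psmd9 had 36.3, 36.8, 40.8, 33.4 and 35.8 CPM in CnB1KO_SD6 and 33.4, 33.8, 33.8, 34.0 and 32.9 CPM in CnB1KO_S6, against 39.1, 40.4, 35.8, 36.0 and 33.5 CPM in WT_SD6 and 37.8, 38.3, 35.3 and 34.7 CPM in WT_S6. The 5 CnB1KO_S6 libraries were low and close together, 4 of 5 CnB1KO_SD6 libraries lay above them, and the change in CnB1KO was 1.09-fold (unadjusted p = 0.0479, adjusted p = 0.507). It shares 25.5% of its exon bases with a gene on the opposite strand.

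Activators open the core without the cap. Psme1 and Psme2 form PA28 alpha-beta, which is induced by interferon, and Psme4 encodes PA200. Psme1 had 35.6, 33.8, 35.8, 35.3 and 40.8 CPM in CnB1KO_SD6 and 37.0, 35.1, 39.8, 35.5 and 33.2 CPM in CnB1KO_S6, against 41.4, 33.8, 25.3, 36.9 and 37.1 CPM in WT_SD6 and 38.8, 41.7, 36.1 and 42.6 CPM in WT_S6. The lowest value belonged to WT_SD6 library 8, and the change in WT was 0.878-fold (adjusted p = 0.507), a log2 change of -0.19 that was -0.09 without that library. Averaged over genotypes, Psme2 was at -0.05 and Psme4 at 0.01. Of the immune subunits, Psmb8 had 2.40, 2.0, 3.44, 2.02 and 2.42 FPKM in CnB1KO_SD6 and 4.03, 3.46, 2.51, 3.03 and 3.65 FPKM in CnB1KO_S6, against 1.82, 2.77, 1.93, 1.68 and 1.92 FPKM in WT_SD6 and 2.39, 2.57, 3.04 and 2.52 FPKM in WT_S6. In all, 4 of 5 deprived libraries in each genotype were below all sleeping ones, and the averaged change of -0.30 on the log2(FPKM + 1) scale did not pass (limma adjusted p = 0.112). Psmb9 was at -0.07 on that scale, with libraries from 0 to 2.35 FPKM. Markers of antigen presentation and interferon response, which share control with these subunits, had a median of -0.11 in the averaged comparison, with 11 of 12 below 0 and 1 that fell.

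Assembly chaperones of the core had low counts, 34.0 to 120 on average, and wide intervals. Psmg1 had a log2 change of 0.11 averaged over genotypes (-0.02 to 0.25), and all 4 of these genes were above 0, with a median of 0.07. Psme3ip1 had 51.5, 49.9, 55.4, 49.9 and 50.2 CPM in CnB1KO_SD6, 51.6, 47.9, 45.3, 48.1 and 45.8 CPM in CnB1KO_S6, 49.8, 47.5, 50.3, 49.7 and 47.4 CPM in WT_SD6 and 44.9, 44.4, 50.7 and 44.6 CPM in WT_S6. In each genotype all but 1 of the sleeping libraries lay below all deprived ones, and the averaged change of 1.07-fold did not pass (unadjusted p = 0.0183, adjusted p = 0.166).

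Genes that act with the proteasome but carry other names were counted in the same way. Of 15 measured, which include the core maturation factor Pomp, the ubiquitin receptor Adrm1 and the deubiquitinases Usp14 and Uchl5, none passed in any deprivation comparison, and their averaged median was 0.00. Ddi2, a protease that activates Nrf1 (1.07-fold, adjusted p = 0.0599, named after the values were seen, as was Bag3), passed in the averaged comparison with the log2 library total as a covariate and without library 6 or 20. Pomp had a log2 change of 0.03 (-0.07 to 0.13) and Nfe2l1 of -0.02 (-0.12 to 0.09). Of 17 genes of ubiquitin supply and delivery 1 fell in the averaged comparison, Ufd1, a partner of the segregase p97 (0.909-fold, adjusted p = 0.0287), and none rose, although the Hsp70 co-chaperone gene Bag3 (1.19-fold, adjusted p = 0.0576) passed with DESeq2, with limma voom and without library 2, 8 or 20. Ufd1 had 70.8, 73.3, 74.0, 82.4 and 80.8 CPM in CnB1KO_SD6, 88.1, 76.3, 80.8, 79.1 and 81.2 CPM in CnB1KO_S6, 78.9, 76.0, 82.0, 84.2 and 76.5 CPM in WT_SD6 and 90.8, 90.9, 87.9 and 91.8 CPM in WT_S6. The WT groups did not overlap and the CnB1KO groups did, and the call was lost without library 1, 2, 4, 11, 16 or 17 and with the oligodendrocyte marker mean as a covariate.

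Between genotypes none of the 46 genes passed in any comparison with edgeR. After deprivation 38 of 46 were above 0 in CnB1KO relative to WT (51.6% of all genes), with a median of 0.07 (all genes 0.01), where 0.132% of all genes passed. At an unadjusted p under 0.05 all 5 were higher, Psmb10, Psmd7, Psmc5, Psmc3 and Psmc1, against 15.2% of all genes, and DESeq2 and limma voom had 3 and 6 such genes and passed none (0.658 and 0.0969% of all genes). Psmd7, a cap subunit, had 82.4, 78.8, 86.1, 85.6 and 92.0 CPM in CnB1KO_SD6 and 78.4, 74.0, 76.2, 77.1 and 76.5 CPM in WT_SD6. These libraries did not overlap, as for 2.05% of all genes (1.11-fold, adjusted p = 0.241). Psmb10 had 27.3, 29.7, 34.3, 30.7 and 37.8 CPM in CnB1KO_SD6 and 27.6, 27.0, 24.7, 26.2 and 29.8 CPM in WT_SD6, an overlap of 2 CnB1KO libraries with the WT range (1.18-fold, adjusted p = 0.203).

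After sleep 30 of 46 were above 0 (53.5% of all genes), with a median of 0.03 (all genes 0.01), and 1 had an unadjusted p under 0.05, Psmc5, against 10.1% of all genes (0.0485% passed). DESeq2 and limma voom also passed none (0.09 and 0.0277% of all genes) and had 1 such gene each. Without library 13 the median was -0.008. Psmd9 was the 1 gene whose libraries did not overlap, all CnB1KO_S6 libraries at or below 34.0 CPM and all WT_S6 libraries at or above 34.7 CPM, where 4.32% of all genes did not overlap. Averaged over sleep states 9 genes had an unadjusted p under 0.05, all higher in CnB1KO, against 23.1% of all genes (3.09% passed). The median was 0.06 (all genes 0.01), and 0.03 without library 13, and 35 of 46 were above 0 (52.5% of all genes). DESeq2 and limma voom had 4 and 7 such genes and passed 1 and none (4.9 and 3.03% of all genes). The 9 genes included Psmd2 at 0.09, Psmd8 at 0.08 and Psmb7 at 0.12 on the log2 scale.

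Psmc5, which lies on chromosome 11 from 106256154 to 106263120 on the plus strand, came closest. Psmc5 had 111, 108, 126, 129 and 121 CPM in CnB1KO_SD6 and 102, 95.8, 115, 109 and 99.3 CPM in WT_SD6. It had 106, 119, 148, 103 and 115 CPM in CnB1KO_S6 and 107, 103, 103 and 95.2 CPM in WT_S6. Both pairs overlapped, with library 13 highest by far, and the averaged change was 1.15-fold, a log2 change of 0.20 with an interval of 0.08 to 0.32 (adjusted p = 0.0641). It passed with DESeq2 (adjusted p = 0.0456) and without WT_SD6 library 8 (0.045), CnB1KO_S6 library 14 (0.0366) or CnB1KO_SD6 library 16 (0.0421, where Psmb10 passed too). With the log2 library total as a covariate the change was 0.13, and with the oligodendrocyte marker mean 0.07.

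Among genes that act with the proteasome under other names, 1 of 15 passed between genotypes, Uchl5, a deubiquitinase of the cap. Uchl5 had 49.0, 57.9, 74.5, 62.2 and 55.7 CPM in CnB1KO_SD6 and 48.5, 44.4, 51.2, 46 and 53.5 CPM in WT_SD6, and 52.2, 59.9, 66.3, 52.6 and 58.3 CPM in CnB1KO_S6 and 52.5, 48.1, 45.8 and 45.8 CPM in WT_S6. Averaged over sleep states it was 1.21-fold higher in CnB1KO (adjusted p = 0.0332), in overlapping groups. The call was lost without library 2, 3, 4, 7, 9, 12, 13, 15 or 19, with either covariate and with FPKM.

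**Figure D5:**
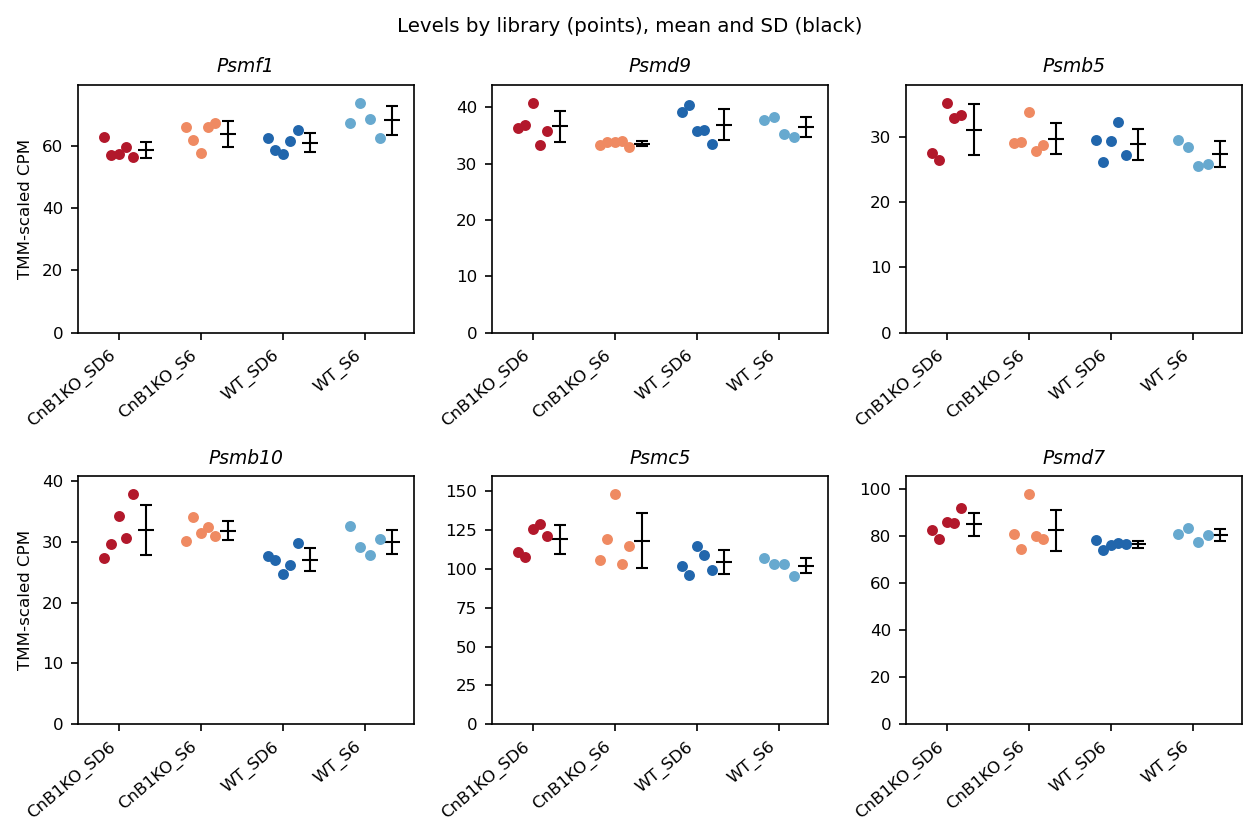
TMM-scaled CPM by library for 6 genes, points for libraries and group mean and SD in black, with axes from 0. Psmf1 is lower in most deprived libraries, Psmd9 is tight in CnB1KO_S6, and library 13 is the isolated high point of CnB1KO_S6 for Psmc5, Psmd7 and Psmb5.

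Marker lists of cell types were counted in the same comparisons. Averaged over sleep states 3 of 12 oligodendrocyte, 2 of 10 microglial and 4 of 7 endothelial markers were higher in CnB1KO and passed, where 1.88% of all genes did, and all markers of these 3 lists were above 0, with medians of 0.18, 0.12 and 0.29. None passed among 8 noradrenergic (8 above 0, median 0.15), 7 neuronal (6 above 0, median 0.09) and 8 astrocyte markers (6 above 0, median 0.11), 12 genes of antigen presentation (11 above 0, median 0.15) and 7 cerebellar granule cell markers (none above 0, median -0.88). After deprivation no marker of these lists passed. There all 12 oligodendrocyte, 10 microglial, 7 endothelial, 8 noradrenergic and 12 antigen presentation genes were above 0 in CnB1KO relative to WT, with medians of 0.23, 0.19, 0.25, 0.22 and 0.21, as were 6 of 7 neuronal and 5 of 8 astrocyte markers (medians of 0.08 and 0.10), and all 7 granule cell markers were below 0, with a median of -1.05. With the oligodendrocyte mean as a covariate the median of the 46 genes was 0.00 after deprivation, 0.00 after sleep and 0.00 averaged. That oligodendrocyte mean itself differed between groups, at 7.21 in CnB1KO_SD6, 7.32 in CnB1KO_S6, 6.94 in WT_SD6 and 7.22 in WT_S6. The covariate therefore cannot separate cell content from group. The part of any cell type in these differences was not tested.

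The 46 genes varied little between libraries of a group, with a median SD of 0.088 on the log2 scale, beside 0.139 over all genes and 0.101 over both chaperone lists. Depth moved with their level. Regressed on the log2 total of the library, the log2 count of a gene had a median slope of 0.90 for the 46 genes and 1.15 for all genes, where 1 is a count in proportion to depth. It was 0.74 in the constitutive beta ring and 1.26 among assembly chaperones of the core, so beta subunits took a larger share of the counts in shallow libraries and assembly chaperones a smaller one. Psmf1 had a slope of 1.29, and with the log2 library total as a covariate its deprivation change was -0.15 (adjusted p = 0.0212).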

How the data were processed

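RNA of 19 locus coeruleus samples was sequenced. The authors deposited whole-number counts per gene symbol for all libraries, and FPKM values in 1 table per group. Per the submitters' processing notes, the build was GRCm38 and the tools were StringTie 2.2.1, HTSeq 2.0.4, SAMtools 1.6, Picard 2.18.29, Trim Galore 0.6.10 and FastQC 0.12.1. Not given in the sources used here are the aligner, the annotation and whether duplicates were removed. Per the labels' protocols the libraries were not made with a kit that marks strand.

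TMM scaling and the test used edgeR 4.0.16 under R 4.3.3 (quasi-likelihood F test, 2-sided, Benjamini-Hochberg over 14443 genes, threshold 0.05), all 19 libraries in 1 fit of the 4 groups with 15 residual degrees of freedom and no covariate. The 7 comparisons were deprivation and genotype within each other's levels, their averages and the interaction. The filter filterByExpr kept all genes, and every symbol of the table had a mean of at least 20.05 counts, so the authors' table already left out low genes. All 46 proteasome-pattern genes were tested. Intervals are Wald 95% intervals from the same fit, with a standard error not below counting error. FPKM were tested with limma 3.58.1 on log2(FPKM + 1) over 19686 symbols with a mean of at least 0.5, and such fold changes understate those of low genes. Positions came from GENCODE M21 and promoters from RefSeq. The fits were tested on simulated counts first.

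The genes, roles and lists were chosen with earlier results of these data known. Genes were named by a rule: those that passed, the 6 of smallest p in each deprivation comparison, the 4 of smallest p in each genotype comparison and the interaction, and a list by role, in all 27 genes, plus up to 4 passing members of each other list and Hspa5, Hspa8, Nfe2l1 and Pomp. Library numbers are those of the count table, which the labels do not tie to single samples, and its column names give the group. P-values weigh a difference between group means against the spread between samples within groups, which the main fit estimated over all 4 groups. Alternatives were RLE scaling, DESeq2 1.42.0, limma voom, a mean of at least 100 counts, the compared libraries alone, covariates for library total and oligodendrocyte markers, FPKM with pseudocounts of 1 and 0.1, and leaving out each library.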

Additional observations from a re-analysis of the deposited data

Results flagged for a closer look

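Among the named genes, a library was taken as far from the rest of its group when its gap to the nearest other library passed Dixon's 95% critical value. This held for 11 of 112 groups of libraries, and chance gives about 1 in 20. In CnB1KO_S6 library 13, the library with the lowest total, Psmd7 was at 97.7 CPM (next 80.9), Psmb5 at 33.8 CPM (next 29.2), Psmb6 at 68.5 CPM (next 54.7), Psmb7 at 45 CPM (next 35.2) and Ppp3r1 at 152 CPM (next 127). In CnB1KO_SD6, Psme1 was high in library 20 at 40.8 CPM (next 35.8), Psmd6 low in library 16 at 58.4 CPM (next 66.1) and Psma7 low in library 17 at 54.9 CPM (next 60.1). In WT_S6 library 3, Psme3ip1 was high at 50.7 CPM (next 44.9) and Psma1 low at 52.1 CPM (next 57.7), and in WT_S6 library 2 Psme2 was high at 25.8 CPM (next 23.3).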

How the results depend on the processing

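In both genotypes none of the 46 genes passed with deprivation under any of 10 other settings or with any 1 library left out, and the same holds for CnB1KO against WT after deprivation and after sleep, and for the interaction under 9 other settings, since it uses all libraries. Averaged over genotypes the number that fell was 1, but 0 with the oligodendrocyte covariate and 0 with FPKM at either pseudocount, and 0 to 1 with a library left out. Averaged over sleep states the number that passed was 0, but 1 with DESeq2 and 0 to 2 with a library left out. The cause was not tested. With the oligodendrocyte covariate the median log2 change of the 46 genes moved to 0.043 for deprivation in WT, 0.002 for CnB1KO against WT after deprivation and 0.001 averaged over sleep states. The other settings gave deprivation medians of 0.020 to 0.048 in CnB1KO, -0.010 to 0.043 in WT and 0.002 to 0.048 averaged, the highest each with the oligodendrocyte covariate. Left-out libraries gave medians of 0.009 to 0.055 for deprivation in CnB1KO, -0.029 to 0.008 in WT and 0.000 to 0.021 averaged, and of 0.047 to 0.092, -0.008 to 0.047 and 0.030 to 0.065 for CnB1KO against WT after deprivation, after sleep and averaged. Over all settings the chaperones that rose with deprivation averaged over genotypes numbered 3 to 13 of 24 and 6 to 14 of 22, within CnB1KO 1 to 6 and 1 to 8 and within WT 1 to 6 and 1 to 8, and none fell. Omitting the filter changed no value, since it removed no gene. Over all genes DESeq2 called 160 with deprivation in CnB1KO where edgeR called 100, 95 against 19 for CnB1KO against WT after deprivation, 13 against 7 after sleep and 694 against 447 averaged over sleep states. No paired analysis was possible because the columns carry running library numbers and not the replicate numbers of the sample titles. Psmc3ip (mean of 22.2 counts) and Psmg4 (34.0) had the widest intervals, so small changes of these genes were not detectable at this depth.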
